A study of Mus musculus with 14 samples.

Results

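The genes described here are 10 enzymes and carrier proteins of glycine, serine and threonine metabolism, *Gldc*, *Amt*, *Gcsh*, *Tdh*, *Gcat*, *Shmt1*, *Shmt2*, *Phgdh*, *Psat1* and *Psph*, out of 41204 genes in the RNA-seq table of mouse embryonic stem cells (ESCs). They were found by gene symbol. The pathway was chosen by its measured values, with the lower level of *Gldc* in knockout ESCs and the members' levels in these same 8 libraries already known, so the members' differences are given as a description, without p-values. All 10 members passed the filter on low values (a mean above 0.2 FPKM, fragments per kilobase of transcript scaled by library depth), as did 15430 of the 41204 genes.

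The study asked what the long noncoding RNA *Trincr1*, listed as *Gm2694*, does in ESCs, and how it acts together with the RNA-binding protein TRIM71. Polyadenylated RNA came from 2 genotypes, wild type and *Trincr1*-/-, in 2 media, which made 4 groups of 2 samples. The ESC strain throughout was a cross, given as C57BL/6(F) x 129/sv(M). A second experiment in the series compared a FLAG-TRIM71 pulldown with input RNA.

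The groups were wild type in 2i + LIF, *Trincr1*-/- in 2i + LIF, wild type in PD + LIF and *Trincr1*-/- in PD + LIF. The 2i + LIF medium was N2B27 with the MEK inhibitor PD0325901 at 1.0 μM, the GSK3 inhibitor CHIR99021 at 3.0 μM and leukemia inhibitory factor at 1000 unit/ml. The PD + LIF groups spent 24 h after plating in full 2i + LIF and the next 4 days without CHIR99021, so MEK inhibitor and LIF were shared by all groups. The knockout removed genomic sequence between a pair of guide RNA sites. Which knockout clone was sequenced is not stated in the sources used here, and a difference between genotypes cannot be told apart from a difference between clones. Nothing in the labels says that the samples of a group came from separate cultures, so the spread between them may be technical.

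Glycine is broken down in mitochondria by the glycine cleavage system, which passes a carbon unit to tetrahydrofolate. GLDC is its decarboxylase, AMT its aminomethyltransferase and GCSH the lipoyl-carrying protein that links the steps. Threonine is cut by threonine dehydrogenase (TDH) and the ligase GCAT into glycine and acetyl-CoA, a route that mouse ESCs are known to depend on. SHMT1 in the cytosol and SHMT2 in mitochondria interconvert serine and glycine, and PHGDH, PSAT1 and PSPH make serine from a glycolytic intermediate.

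FPKM sums per sample ranged from 497115 to 519651, and a rough estimate from the steps between low values put the depth at 8.13 to 11.2 M fragments. *Gm2694* stood at 5.70 and 9.45 FPKM in wild type and at 0.0754 and 0 FPKM in *Trincr1*-/- in 2i + LIF, and at 6.18 and 6.56 against 1.38 and 0.746 FPKM in PD + LIF. The 8 ESC markers (*Pou5f1*, *Sox2*, *Nanog* and others) summed to 1804 to 1839 FPKM in 2i + LIF, 1121 to 1156 in wild type in PD + LIF and 919 to 952 in *Trincr1*-/- in PD + LIF. The 5 neural markers summed to 2.91 to 3.39 FPKM in 2i + LIF, 21.5 to 23.0 in wild type and 29.2 to 30.7 in *Trincr1*-/- in PD + LIF. The 7 fibroblast markers summed to 0.556 to 1.35, 4.14 to 4.59 and 5.56 to 6.40 FPKM in these groups, and the 6 endoderm markers to 0.769 to 1.62, 2.55 to 3.12 and 3.68 to 4.72 FPKM, with *Afp* at 0 in every sample. All 4 marker sums moved with medium and, in PD + LIF, with genotype. In 2i + LIF the ESC sums were 1804 to 1806 FPKM in wild type and 1817 to 1839 in *Trincr1*-/-. The endoderm sums there were 0.944 to 1.62 and 0.769 to 0.823 FPKM, and the neural and fibroblast sums of the genotypes overlapped. The part of the marker sums in the differences given for the 10 genes was not tested. In bulk RNA, fewer cells that express a gene and less RNA per cell cannot be told apart.

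The promoters are shown for *Gldc*, the member with the greatest genotype difference, and for *Gcat*, the one member whose start region held a motif that was searched. RefSeq start regions of GRCm38.p6, 300 bases each from 250 before to 50 after the annotated start, were listed for 9 of the 10 members, 10 regions in all, since *Psat1* had a pair. Each is printed on its own strand, cut to 30 bases after the start, with an E-box in capitals. *Gldc* lies on the minus strand at chr19:30175412-30175691 and *Gcat* on the plus strand at chr15:79030624-79030903.
Gldc: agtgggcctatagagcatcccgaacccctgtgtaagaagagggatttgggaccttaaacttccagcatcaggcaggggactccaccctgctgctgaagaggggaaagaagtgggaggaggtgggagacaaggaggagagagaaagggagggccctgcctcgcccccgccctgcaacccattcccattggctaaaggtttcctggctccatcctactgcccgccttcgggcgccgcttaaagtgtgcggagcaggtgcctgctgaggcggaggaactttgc
Gcat: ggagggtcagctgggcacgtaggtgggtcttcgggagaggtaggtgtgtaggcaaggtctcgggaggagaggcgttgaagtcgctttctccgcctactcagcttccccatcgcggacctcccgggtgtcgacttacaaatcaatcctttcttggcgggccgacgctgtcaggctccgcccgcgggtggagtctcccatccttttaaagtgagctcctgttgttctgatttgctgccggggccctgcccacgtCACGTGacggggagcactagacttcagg
The E-box CACGTG, which reads the same on both strands, was found in the *Gcat* region just downstream of its start and in none of the other member regions, against 7.15% of 32851 start regions in the table. The element TGATGNAAN, bound by C/EBP-ATF dimers, was in 0 of the 10 regions and in 3.95% of all, searched on both strands. CTTTGAT, bound by TCF/LEF factors, was in 0 of the 10 and in 3.73% of all, also on both strands. CG pairs numbered 7 to 30 in the member regions, with a median of 7 over all regions. A match or its absence describes these letters in these windows.

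**Figure D1:**
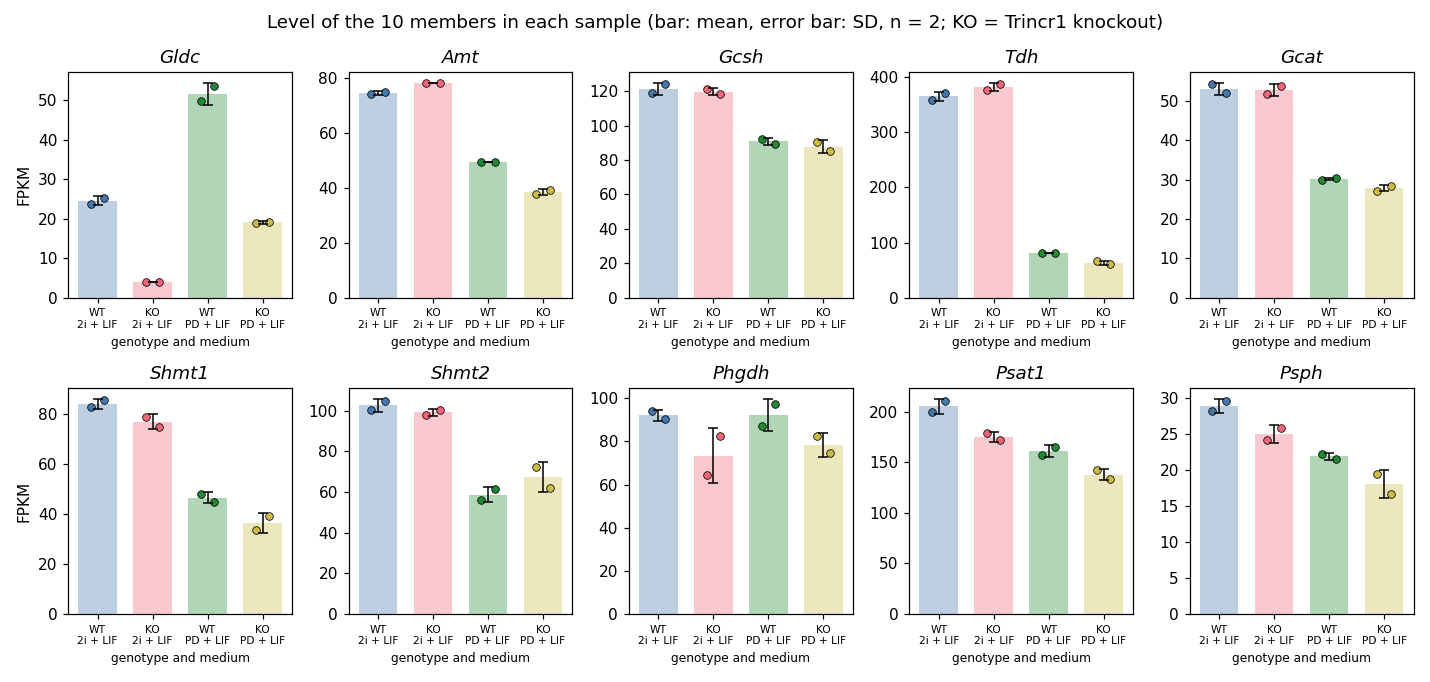
FPKM of each member in each of the 8 samples (vertical axes, linear, from 0) by genotype and medium, where KO is *Trincr1*-/-; points are samples, bars the mean and error bars the SD (n = 2). *Gldc* is the one panel whose points in PD + LIF lie above those in 2i + LIF in both genotypes without overlap, and *Tdh* the one whose bars drop by over 4-fold there.

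The levels of the 10 genes are read in FPKM, which is per length, so that genes can be set side by side. In wild type in 2i + LIF, *Tdh* was the highest at 365 ± 8.84 FPKM (SD, n = 2) and *Gldc* the lowest at 24.6 ± 1.08. Between them stood, in falling order, *Psat1*, *Gcsh*, *Shmt2*, *Phgdh*, *Shmt1*, *Amt*, *Gcat* and *Psph*, and the samples of each gene did not overlap those of its neighbour. In *Trincr1*-/- ESCs in 2i + LIF *Amt*, *Shmt1* and *Phgdh* overlapped, and *Gldc* remained the lowest. In wild type in PD + LIF the order began with *Psat1*, *Phgdh* and *Gcsh*, the last of which overlapped *Phgdh*, *Tdh* was in position 4 and *Gldc* in position 6. In *Trincr1*-/- in PD + LIF *Psat1* was again the highest, and *Shmt2* overlapped *Tdh*, *Amt* overlapped *Shmt1*, and *Gldc* overlapped *Psph* at the low end.

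*Gldc* (ENSMUSG00000024827, chr19:30098449-30175418 on GRCm38) was lower in *Trincr1*-/- ESCs in both media and higher in PD + LIF in both genotypes. In 2i + LIF its level was 23.8 and 25.3 FPKM in the wild-type samples and 4.02 and 4.02 in the *Trincr1*-/- samples. In PD + LIF it was 49.7 and 53.6 FPKM in wild type and 18.8 and 19.3 in *Trincr1*-/-. All 4 groups were apart from each other, and the *Trincr1*-/- samples in PD + LIF lay below the wild-type samples in 2i + LIF.

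The wild-type mean of *Gldc* was 6.11 times the *Trincr1*-/- mean in 2i + LIF and 2.71 times in PD + LIF. On the log2(FPKM + 1) scale the genotype difference was -2.35 ± 0.07 (SE; 95% interval -2.50 to -2.19) in 2i + LIF and -1.39 ± 0.07 (-1.55 to -1.24) in PD + LIF. The genotype difference was thus smaller in size in PD + LIF, by 0.95 ± 0.09 on the log2 scale (0.73 to 1.17). The mean of *Gm2694* in *Trincr1*-/- was 0.498% of the wild-type mean in 2i + LIF and 16.7% in PD + LIF. The part of this unequal depletion in the smaller *Gldc* difference was not tested. From 2i + LIF to PD + LIF the mean of *Gldc* was multiplied by 2.10 in wild type and by 4.74 in *Trincr1*-/-. Its mean stood at the 77.8th percentile of the 15430 genes in wild type in 2i + LIF, the 43.4th in *Trincr1*-/- in 2i + LIF, the 89.4th in wild type in PD + LIF and at percentile 72.1 in *Trincr1*-/- in PD + LIF. An estimated 123 fragments, the smallest number for any member and sample, lay behind its lowest value.

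*Amt* (chr9:108296853-108301571), the aminomethyltransferase of the same complex, did not share the pattern of *Gldc*. It read 74.0 and 74.9 FPKM in wild type and 78.2 and 78.1 in *Trincr1*-/- in 2i + LIF. In PD + LIF it read 49.3 and 49.3 FPKM in wild type and 37.6 and 39.4 in *Trincr1*-/-. The *Trincr1*-/- samples were thus slightly above wild type in one medium and below it in the other, and both genotypes were lower in PD + LIF. The genotype difference of *Amt* was 0.07 ± 0.04 on the log2 scale in 2i + LIF and -0.35 ± 0.04 in PD + LIF, and these differed by -0.42 ± 0.06 (95% interval -0.56 to -0.28).

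*Gcsh* (chr8:116981810-116993537), the lipoyl carrier, read 118.8 and 123.9 FPKM in wild type and 121.0 and 118.1 in *Trincr1*-/- in 2i + LIF. Its PD + LIF values were 92.2 and 89.4 FPKM in wild type and 90.3 and 84.9 in *Trincr1*-/-. The genotypes overlapped in both media, and both media were apart in each genotype. The genotype difference had a 95% interval of -0.13 to 0.09 on the log2 scale in 2i + LIF and of -0.16 to 0.06 in PD + LIF.

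Set against its partners, *Gldc* was the member of the cleavage system that varied most. The ratio of *Gldc* to *Gcsh* in FPKM was 0.202 ± 0.00292 (SD, n = 2) in wild type in 2i + LIF, 0.0337 ± 0.000567 in *Trincr1*-/- in 2i + LIF, 0.570 ± 0.0428 in wild type in PD + LIF and 0.218 ± 0.0133 in *Trincr1*-/- in PD + LIF. Wild type in 2i + LIF and *Trincr1*-/- in PD + LIF were close in this ratio, although their samples did not overlap. The ratio of *Gldc* to *Amt* ran from 0.0515 in *Trincr1*-/- in 2i + LIF to 1.05 in wild type in PD + LIF.

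*Tdh* (chr14:63492347-63509092), the first enzyme of threonine breakdown, was the member that differed most between media. In 2i + LIF it read 358.8 and 371.3 FPKM in wild type and 377.3 and 387.9 in *Trincr1*-/-. In PD + LIF it read 81.1 and 81.0 FPKM in wild type and 66.0 and 60.5 in *Trincr1*-/-. Every PD + LIF sample was far below every 2i + LIF sample, and the genotypes were apart in both media, in opposite directions. The 2i + LIF mean of *Tdh* was 4.50 times the PD + LIF mean in wild type and 6.05 times in *Trincr1*-/-. Its log2 difference between media was -2.16 ± 0.05 in wild type and -2.58 ± 0.05 in *Trincr1*-/-, and the genotype difference was 0.07 ± 0.05 in 2i + LIF against -0.35 ± 0.05 in PD + LIF. The antisense entry *Gm17232* inside *Tdh* read at most 0.703 FPKM.

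*Gcat* (chr15:79030874-79043558), whose product takes the next step, read 54.2 and 52.0 FPKM in wild type and 51.7 and 53.9 in *Trincr1*-/- in 2i + LIF. Its values in PD + LIF were 29.9 and 30.4 FPKM in wild type and 27.2 and 28.3 in *Trincr1*-/-. Genotypes overlapped in 2i + LIF and were apart in PD + LIF, with a log2 difference of -0.12 ± 0.05 (95% interval -0.24 to 0.00) there. *Gcat* was lower in PD + LIF than in 2i + LIF by a smaller factor than *Tdh*, 1.76 in wild type and 1.90 in *Trincr1*-/-. The ratio of *Tdh* to *Gcat* was accordingly 6.88 and 7.25 in wild type and *Trincr1*-/- in 2i + LIF and 2.68 and 2.28 in PD + LIF, as group means.

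The serine hydroxymethyltransferases were both lower in PD + LIF. Cytosolic *Shmt1* (chr11:60788104-60811718) read 82.9 and 85.6 FPKM in wild type and 79.1 and 75.0 in *Trincr1*-/- in 2i + LIF. In PD + LIF *Shmt1* read 48.1 and 45.0 FPKM in wild type and 33.5 and 39.2 in *Trincr1*-/-. Its *Trincr1*-/- samples were below wild type in each medium, with a log2 difference of -0.13 ± 0.08 in 2i + LIF and -0.35 ± 0.08 in PD + LIF.

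Mitochondrial *Shmt2* (chr10:127517123-127522444) read 100.3 and 104.8 FPKM in wild type and 98.0 and 100.2 in *Trincr1*-/- in 2i + LIF. In PD + LIF *Shmt2* read 56.0 and 61.3 FPKM in wild type and 72.3 and 61.9 in *Trincr1*-/-. It was the one member with higher values in *Trincr1*-/- in PD + LIF, by a log2 difference of 0.19 ± 0.08 (95% interval 0.00 to 0.37), with its closest samples less than 1 FPKM apart. The annotated ends of *Shmt1* and *Smcr8* and of *Shmt2* and *Ndufa4l2* overlap, and *Ndufa4l2* read 0.778 to 1.32 FPKM in 2i + LIF and 10.6 to 17.6 in PD + LIF. The part of these neighbours in the *Shmt* values was not tested.

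In wild type, the serine synthesis genes varied least between media. *Phgdh* (chr3:98313170-98339990), the first enzyme of the route, read 94.0 and 90.4 FPKM in wild type and 64.5 and 82.4 in *Trincr1*-/- in 2i + LIF. In PD + LIF *Phgdh* read 87.1 and 97.6 FPKM in wild type and 82.4 and 74.6 in *Trincr1*-/-. Media overlapped in both genotypes, and *Trincr1*-/- was below wild type in both media with a wide spread between its samples. The log2 difference between media was 0.00 (95% interval -0.27 to 0.27) in wild type, and that between genotypes was -0.33 (-0.60 to -0.07) in 2i + LIF and -0.23 (-0.50 to 0.04) in PD + LIF.

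*Psat1* (chr19:15904678-15947337), the transaminase of the route, read 200.2 and 210.7 FPKM in wild type and 179.0 and 171.8 in *Trincr1*-/- in 2i + LIF. In PD + LIF it read 157.5 and 165.6 FPKM in wild type and 142.2 and 133.9 in *Trincr1*-/-. The 4 groups were apart, with *Trincr1*-/- lower in each medium. The genotype difference of *Psat1* was -0.23 ± 0.05 on the log2 scale in both media, past the threshold used in PD + LIF and not in 2i + LIF.

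*Psph* (chr5:129765558-129787252), the phosphatase that completes serine, read 28.2 and 29.5 FPKM in wild type and 24.1 and 25.8 in *Trincr1*-/- in 2i + LIF. In PD + LIF it read 22.2 and 21.5 FPKM in wild type and 19.4 and 16.6 in *Trincr1*-/-. Again *Trincr1*-/- lay below wild type in each medium, by -0.20 ± 0.08 and -0.27 ± 0.08 on the log2 scale. *Phgdh*, *Psat1* and *Psph* were thus all lower in the *Trincr1*-/- samples in both media, at 79.6% to 86.4% of the wild-type means in 2i + LIF and 82.4% to 85.4% in PD + LIF. Of these genotype differences, only that of *Psat1* in PD + LIF was past the threshold used. Over all genes, 22.4% in 2i + LIF and 27.5% in PD + LIF were lower with groups apart.

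**Figure D2:**
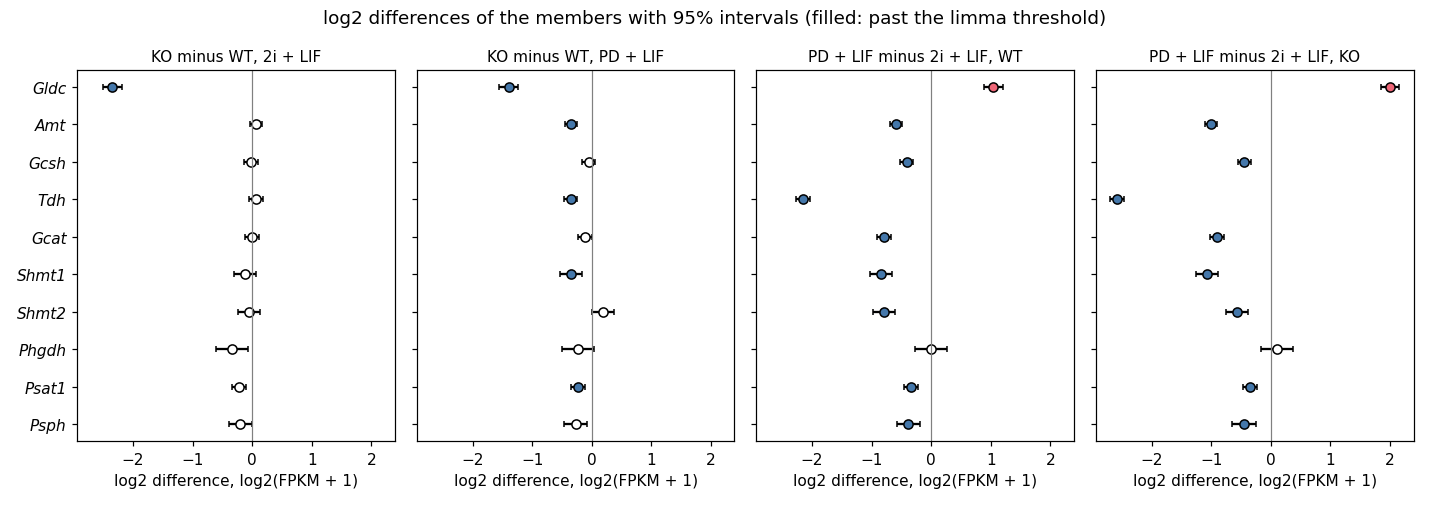
Difference of log2(FPKM + 1) for each member (rows) in 4 comparisons (panels), with 95% intervals from limma, where KO is *Trincr1*-/-; blue points were lower and red points higher past an adjusted p of 0.05, and open points were not past it. In both panels for PD + LIF minus 2i + LIF, *Gldc* lies to the right and 8 members to the left of 0.

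Counted over the members, the genotype comparison in 2i + LIF had 0 members higher and 1 lower, *Gldc*, past an adjusted p of 0.05 by limma, against 0.35% and 0.855% of all genes tested, and 0 members were higher at an unadjusted p under 0.05. Groups did not overlap for 2 members that were higher in *Trincr1*-/-, *Amt* and *Tdh*, and 6 that were lower, against 22.0% and 22.4% of all genes. The median log2 difference was -0.09 over the members and 0.00 over all genes.

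In PD + LIF, 0 members were higher and 5 lower past the same threshold, *Gldc*, *Amt*, *Tdh*, *Shmt1* and *Psat1*, against 6.29% and 5.77% of all genes. The groups were apart for 1 higher member, *Shmt2*, and 8 lower ones, all but *Gcsh*, against 30.2% and 27.5%. The median log2 difference was -0.25 over the members and 0.01 over all genes. At an unadjusted p under 0.05 there was 1 higher member, *Shmt2*. The member calls in each comparison, and whether they held with a library left out, rest on the values by which the members were chosen. They describe the members and are no independent support. *Gldc* and *Amt* stayed past the threshold whichever of the 8 libraries was left out. *Tdh* was not past it without wild-type sample 1 in PD + LIF. *Psat1* was not past it whichever of the 4 PD + LIF libraries was left out, and *Shmt1* was past it only with all 8 libraries or without *Trincr1*-/- sample 2 in PD + LIF.

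Between media, 1 member was higher in PD + LIF, *Gldc*, and 8 were lower in wild type past the threshold, against 30.9% and 21.3% of all genes. The same 9 members were past it in the same directions in *Trincr1*-/-, against 29.6% and 20.3%. Both sets of 9 calls were made whichever library was left out. Media were apart for these 9 members, with background shares of 44.4% higher and 32.1% lower in wild type and 43.3% and 31.2% in *Trincr1*-/-, and overlapped for *Phgdh*. The median log2 difference of the members was -0.50 in wild type and -0.51 in *Trincr1*-/-, while that of all genes was 0.08 and 0.07. Of all calls between media, 59.2% in wild type and 59.3% in *Trincr1*-/- were higher in PD + LIF, and 49.1% and 48.2% after quantile normalization, which shifted the median of all genes in *Trincr1*-/- from 0.07 to -0.03. The 9 members kept their direction and stayed past the threshold under it.

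For the difference of the genotype effect between media, 1 member was past the threshold with a positive value, *Gldc*, and 2 with a negative one, *Amt* and *Tdh*, against 0.992% and 0.817% of all genes. *Amt* and *Tdh* were past it in none of the 8 fits that left out 1 library each, and *Gldc* in 2 of them, those without wild-type sample 1 in 2i + LIF and without wild-type sample 2 in PD + LIF.

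**Figure D3:**
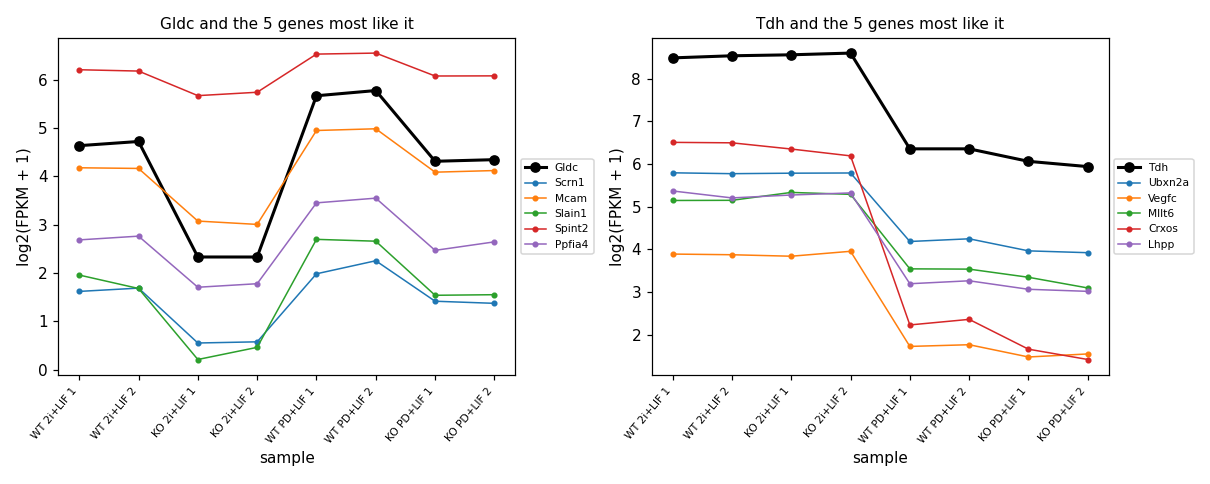
log2(FPKM + 1) in the 8 samples (horizontal axis, WT wild type and KO *Trincr1*-/-) of *Gldc* with the 5 genes most like it (left) and of *Tdh* with the 5 most like it (right), by Pearson's r. All curves on the left dip in KO in 2i + LIF, and all curves on the right drop from 2i + LIF to PD + LIF.

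Of 12053 genes with a mean of at least 1 FPKM, the 5 whose log2(FPKM + 1) followed *Gldc* most closely over the 8 samples were *Scrn1* (Pearson's r 0.992), *Mcam* (0.992), *Slain1* (0.987), *Spint2* (0.982) and *Ppfia4* (0.981). *Mcam*, a cell adhesion molecule, had group means of 17.0 and 7.21 FPKM in wild type and *Trincr1*-/- in 2i + LIF and of 30.2 and 16.1 FPKM in PD + LIF. *Slain1*, a microtubule-associated protein gene, had means of 2.54, 0.264, 5.38 and 1.91 FPKM in the same order. Like *Gldc*, both were lowest in *Trincr1*-/- in 2i + LIF and highest in wild type in PD + LIF.

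The 5 genes closest to *Tdh* were *Ubxn2a* (r 0.999), *Vegfc* (0.998), *Mllt6* (0.998), *Crxos* (0.998) and *Lhpp* (0.998). *Vegfc*, a lymphatic growth factor, fell from 13.8 and 13.9 FPKM in wild type and *Trincr1*-/- in 2i + LIF to 2.35 and 1.86 in PD + LIF, as group means. These genes were chosen by their likeness, the 8 samples form 4 groups of near-equal values, and the correlations are a description. By Spearman's rho 2 of the 5 genes for *Gldc* and 0 of the 5 for *Tdh* were among the 5 highest.

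**Figure D4:**
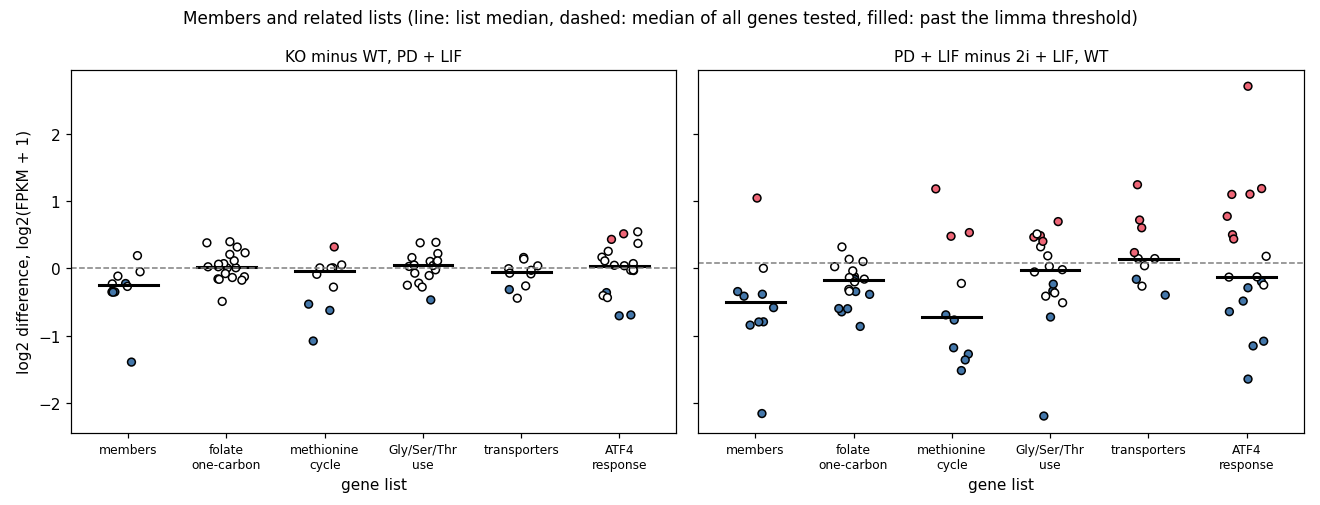
Difference of log2(FPKM + 1) (vertical axis) of each member and each gene of 5 related lists, *Trincr1*-/- minus wild type in PD + LIF (left) and PD + LIF minus 2i + LIF in wild type (right); thick lines are list medians, the dashed line the median of all genes tested, and filled points were past an adjusted p of 0.05. On the right, the members and the methionine cycle list have medians of -0.50 and -0.73.

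Other genes around the pathway were followed in 5 lists, chosen, like the members, with earlier results of these data known. Their adjusted p-values therefore describe these genes and are no independent support. The lists held 86 genes, of which 74 passed the filter on low values. Of these 74, 0 were higher (1 at an unadjusted p under 0.05) and 2 lower in *Trincr1*-/- in 2i + LIF by limma. Over all genes tested, 0.35% were higher and 0.855% lower. *Cth*, which makes cysteine from cystathionine, read 57.6 and 59.7 FPKM in wild type and 40.6 and 38.6 in *Trincr1*-/- (log2 difference -0.55 ± 0.06, limma adjusted p = 0.00986). *Slc38a1*, a neutral amino acid transporter, read 19.3 and 19.4 FPKM against 11.4 and 10.7 (-0.76 ± 0.07, limma adjusted p = 0.00498). Both were below wild type in 2 of 2 samples. Without wild-type sample 1, wild-type sample 2 or *Trincr1*-/- sample 2 in 2i + LIF, *Slc38a1* was past the threshold and *Cth* was not.

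In PD + LIF, 3 of the 74 were higher and 8 lower in *Trincr1*-/-, against 6.29% and 5.77% of all genes tested. Both directions together made 14.9% of the 74, near the 12.1% of all genes. Of the 19 folate one-carbon genes tested, 0 were past the threshold by limma and 3 had an unadjusted p under 0.05. In the methionine cycle and transsulfuration list, 1 rose, the methionine adenosyltransferase gene *Mat2a* (0.32 ± 0.04, limma adjusted p = 0.00623), and 3 fell, among them *Cth* (-0.63 ± 0.06, adjusted p = 0.00279) and *Cbs* (-1.08 ± 0.23, adjusted p = 0.0294), which encodes the enzyme before CTH. *Cth* thus differed between genotypes in the same direction in both media, at 20.5 and 19.2 FPKM in wild type and 12.3 and 12.7 in *Trincr1*-/- in PD + LIF. *Pipox*, which oxidizes sarcosine, fell by 0.47 on the log2 scale (limma adjusted p = 0.00874), and the transporter gene *Slc1a5* fell by 0.32 (adjusted p = 0.0152). Of 18 ATF4 and amino acid response genes, 2 rose, *Atf5* and *Slc7a3*, and 3 fell, *Asns*, *Ddit3* (log2 difference -0.69) and *Stc2* (-0.71). *Asns* read 206.9 and 219.9 FPKM in wild type and 170.9 and 161.1 in *Trincr1*-/-. In alternative fits without a variance trend or with replicate number as a block, *Asns* and *Atf5* stayed past the threshold. *Ddit3* and *Stc2* did not in either fit, and *Slc7a3* did only with the block. With 1 library left out, 4 to 9 of the 74 genes were past the threshold: 5 without *Trincr1*-/- sample 1, 7 without *Trincr1*-/- sample 2, 5 without wild-type sample 1 and 4 without wild-type sample 2 in PD + LIF, and 6 without either wild-type sample in 2i + LIF. *Cth* was among them each time.

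Between media, 45 of the 74 genes were past the threshold in wild type, 18 higher and 27 lower in PD + LIF. The shares over all genes tested were 30.9% higher and 21.3% lower. Both directions together made 60.8% of the 74 in wild type, near the 52.2% of all genes. In *Trincr1*-/- 45 of the 74 were past it, 20 higher and 25 lower, against 29.6% and 20.3% of all genes. In the methionine cycle and transsulfuration list 6 of 10 fell in wild type, with *Cth* at -1.52 ± 0.06 (limma adjusted p = 5.59e-06) and *Mat2a* at -1.36 ± 0.04 (adjusted p = 3.72e-06), and 3 rose, among them *Ahcyl2* at 1.18 ± 0.09. The list's median was -0.73 in wild type and -0.85 in *Trincr1*-/-. Of 19 folate genes 0 rose by limma (0 at an unadjusted p under 0.05) and 8 fell in wild type, led by *Aldh1l1* at -0.86 ± 0.16 (limma adjusted p = 0.0035), with a median of -0.17. *Dmgdh*, the mitochondrial dimethylglycine dehydrogenase gene, read 3.38 to 4.53 FPKM in 2i + LIF and was at 0 or 0.0306 FPKM in PD + LIF.

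The transporter and response lists moved both ways between media. Over all genes tested, 30.9% were past the threshold and higher in PD + LIF in wild type, and 21.3% lower. Of 10 transporters, 4 rose and 2 fell in wild type, with the glycine transporter gene *Slc6a9* at 1.24 ± 0.29 (limma adjusted p = 0.00879). Of 18 ATF4 and amino acid response genes, 7 rose and 7 fell, from *Ddit4* at 2.70 ± 0.10 (limma adjusted p = 5.41e-06) to the cationic amino acid transporter gene *Slc7a3* at -1.65 ± 0.10 (adjusted p = 2.2e-05). In *Trincr1*-/- the asparagine synthetase gene *Asns* fell by 1.48 on the log2 scale (limma adjusted p = 2.2e-06), from a mean of 466 to 166 FPKM. Its mean fell in wild type too, from 453 to 213 FPKM. Among 17 genes of glycine, serine and threonine use, 4 rose and 4 fell in wild type, with the threonyl-tRNA synthetase gene *Tars* at -0.72 ± 0.05.

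**Figure D5:**
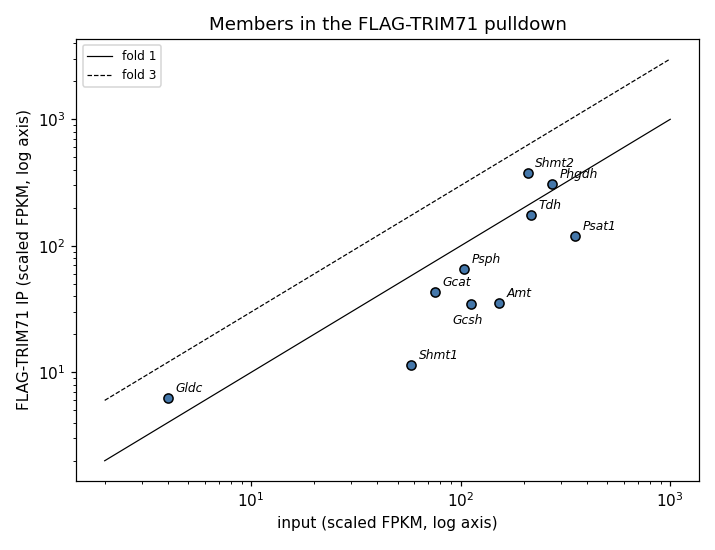
Scaled FPKM of the 10 members in the input (horizontal, log axis) and in the FLAG-TRIM71 immunoprecipitation (vertical, log axis), 1 deposited value each, with lines at a fold of 1 and of 3. All members lie under the line for a fold of 3, and *Shmt2*, *Gldc* and *Phgdh* above that for 1.

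The last measurement asked which RNAs were pulled down with TRIM71. A 3XFLAG-Trim71 transgene was overexpressed in ESCs kept in 2i + LIF, and after UV crosslinking RNA was recovered with a FLAG antibody. Input RNA was selected on poly-T beads and the immunoprecipitated (IP) RNA was not, so a fold also compares a pair of library preparations. The series lists 2 samples each of input and IP, while in the deposited table each transcript has a single input value and a single IP value. Whether a value combines both samples is not stated in the sources used here, so no fold has an error or a test.

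None of the members, 0 of 10, had a scaled IP over input above 3, the study's cutoff for transcripts with an input above 2 FPKM, against 5.1% of 9651 transcripts. *Shmt2* had the highest fold of the members, 1.80 (input 208.9 and scaled IP 376.1 FPKM), followed by *Gldc* at 1.58 (4.0 and 6.3 FPKM) and *Phgdh* at 1.12. *Tdh* stood at 0.814, *Psph* at 0.635 and *Gcat* at 0.576. The folds of *Psat1*, *Gcsh*, *Amt* and *Shmt1* were 0.342, 0.312, 0.234 and 0.197. *Shmt1* and *Shmt2*, whose products catalyse the same reaction in separate compartments, were thus at the bottom and the top of the members. The median was 0.605 over the members, 0.0571 over all 9651 transcripts, of which 46.4% were listed at 0 in the IP, and 0.26 over the 1618 with an input of at least 50 FPKM, as 9 of the 10 members had. Without the deposited factor of 2.25 on the IP, the fold of *Shmt2* was 0.801 and that of *Gldc* 0.70.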

How the data were processed

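Poly(A) RNA was sequenced in 8 samples, 2 in each of 4 groups assigned from the sample titles. The authors aligned reads with STAR 2.5.0 and deposited FPKM values per gene from Cufflinks 2.2.1. Their notes name mm9, but 76.6% of 19602 protein-coding genes lay within 1000 bases of GRCm38.p6, so loci are given as GRCm38. Deposited starts are 0-based and were converted. For the pulldown, the authors deposited a single FPKM column for the 2 input samples and another for the 2 IP samples, without stating whether these are pooled, and a pair of columns with a scaled signal, called scaled FPKM here. Their column of enrichment folds was not used, and the empty-vector IP was not analysed here.

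One entry was kept for each of 41204 gene identifiers. Log2(FPKM + 1) of the 15430 genes with a mean above 0.2 FPKM was fitted in 1 model over the 4 groups, with a variance trend, by limma 3.58.1 (R 4.3.3). P-values were adjusted by Benjamini-Hochberg over all genes, with a threshold of 0.05. Tested on simulated data for the knockout comparison in 2i + LIF with 15430 genes, this called 200 of 200 genes changed by 1 on the log2 scale and 9 unchanged genes. The simulated noise was normal, with a spread set by mean level alone, and genes of low level were not changed. This recovery therefore does not carry over to real genes that vary more than others of their level or lie low. Depth was estimated from steps between low FPKM values and exon lengths of NCBIM37, so it is rough.

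The members and the related and marker lists were chosen with earlier results of these data known. Named genes are all members, at most 2 rises and 2 falls for each related list and comparison among genes past the threshold with groups apart, and the 5 genes most like *Gldc* and *Tdh*. *Smcr8*, *Ndufa4l2* and *Gm17232* were named for their overlap with members. Alternatives covered the pseudocount, filter, normalization, variance model, samples fitted, replicate block, fold rule and each library left out. Python 3.11.15, pandas 2.3.3, numpy 2.4.6, scipy 1.17.1 and matplotlib 3.10.9 were used.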

Additional observations from a re-analysis of the deposited data

Results flagged for a closer look

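Among the members, whose values were known when they were chosen, the change of the genotype difference between media is a description. PD + LIF minus 2i + LIF, it was 0.95 on the log2 scale for *Gldc*, from -2.35 to -1.39, and -0.42 for both *Amt* and *Tdh*. These 3 were past limma's threshold for the change, but *Amt* and *Tdh* were not with the replicate block or without the variance trend. With 1 library left out, *Amt* and *Tdh* were never past it, and *Gldc* was not in most such fits. *Amt*, *Tdh* and *Shmt2* each had genotypes apart in opposite directions in the media. For *Shmt2* both *Trincr1*-/- samples were below wild type in 2i + LIF and above it in PD + LIF. Its closest samples in 2i + LIF read 100.2 and 100.3 FPKM. Over all genes, 22.4% were apart and lower in 2i + LIF and 30.2% apart and higher in PD + LIF. The change of 0.24 for *Shmt2* was not past the threshold (95% interval -0.02 to 0.50), and the opposite directions themselves were not tested. *Gm2694* in *Trincr1*-/- stood at 0.498% of its wild-type mean in 2i + LIF and 16.7% in PD + LIF. Its part in these changes was not tested.

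Of the 74 related genes tested, 3 were past the threshold with a positive change and 2 with a negative one, against 0.992% and 0.817% of all genes. Among them, limma's test of the change gave -0.77 for *Ahcyl2* (limma adjusted p = 0.0368). *Ahcyl2* read 23.3 and 23.5 FPKM in wild type and 16.5 and 15.2 in *Trincr1*-/- in PD + LIF but 8.98 and 10.6 against 11.6 and 11.8 in 2i + LIF. The test gave -0.40 for *Asns* (limma adjusted p = 0.0368) and 0.37 for *Mat2a* (adjusted p = 0.0364). For the amino acid transporters *Slc38a1* and *Slc7a3* it gave 0.73 (limma adjusted p = 0.0272) and 0.76 (adjusted p = 0.0484), and *Slc38a1* was lower in *Trincr1*-/- in 2i + LIF and at 23.7 and 22.1 against 23.0 and 21.8 FPKM in PD + LIF. None of these 5 related genes was past the threshold with any 1 of the 8 libraries left out.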

How the results depend on the processing

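No called difference changed direction under any alternative run. *Gldc* stayed past the threshold for genotype in both media except when the 4 samples in 2i + LIF were fitted alone, and the 9 members stayed past it between media except by the fold rule. In 2i + LIF the genotype comparison called 186 genes, 302 by the fold rule (a ratio of group means above 2 and a mean level of 1 FPKM or more), 122 without a filter on low values and 0 with only the 4 samples of that medium, where members and related genes were also at 0 and 2106 genes, 4 members and 8 related genes had an unadjusted p under 0.05. The fold rule called 1 related gene there. In PD + LIF the 5 members became 3 without the filter or the variance trend and 1 with only that medium's samples or by the fold rule. The 11 related genes became 6, 3 and 1 without the filter, with only that medium's samples and by the fold rule, and the 1861 genes became 316 with only those samples and 492 by the fold rule. Between media the fold rule called 2 members, 14 related genes and 2333 genes in wild type, and 4, 11 and 2411 in *Trincr1*-/-. For the difference between media of the genotype effect, 279 genes became 138 without the filter, with 1 related gene, and 88 without the variance trend, with 1 member and 0 related genes (13 at an unadjusted p under 0.05).

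Replicate numbers did not pair the samples (correlations of deviations from -0.05 to 0.01). The fit with the replicate block called 111 genes in 2i + LIF, 3 members in PD + LIF, and 39 genes, 1 member and 0 related genes (15 at an unadjusted p under 0.05) for the difference between media. Its other counts stayed within 1.5 times.

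With each library left out in turn, the genotype comparison in 2i + LIF called 40 to 113 genes, 1 to 1 member and 1 to 2 related genes. That in PD + LIF called 335 to 1519 genes, 2 to 4 members and 4 to 9 related genes. The difference between media called 3 to 34 genes, 0 to 1 members and 0 to 0 related genes. PD + LIF against 2i + LIF called 6473 to 7937 genes, 9 to 9 members and 32 to 45 related genes in wild type, and 6136 to 7552, 9 to 9 and 36 to 41 in *Trincr1*-/-. These fits have 1 sample in a group, which is assumed to vary like the others.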

Other observations

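Of 63 related genes with an input above 2 FPKM in the pulldown, 6 had a scaled IP over input above 3, against 5.1% of all transcripts, named here after their values were seen. They were *Gnmt* at 18.7, *Cbs* at 9.62, *Slc19a1*, a folate carrier gene, at 9.60, *Aldh1l1* at 3.61, *Ahcyl2* at 3.17 and *Fpgs*, which adds glutamates to folate, at 3.11. Without the deposited factor of 2.25 on the IP, *Gnmt* (8.33), *Cbs* (4.29) and *Slc19a1* (4.27) were above 3, and *Aldh1l1*, *Ahcyl2* and *Fpgs* were at 1.61, 1.41 and 1.38. These are single values, without a test.

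The input of the pulldown gives a second, separately normalized set of levels in 2i + LIF, from ESCs whose line the labels do not state. *Gldc* was listed there at 4.0 FPKM, which is 0.163 times its RNA-seq mean in wild type in 2i + LIF and 0.995 times that in *Trincr1*-/-. The other 9 members were at 0.591 to 3.59 times their wild-type means, and the median over 10856 genes was 0.789. At 0.163, *Gldc* stood at the 5.65th percentile of this ratio. The difference has no replicate check, and its source was not tested.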
